A study of Mus musculus with 10 samples.

Results

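Whole lung of vehicle-treated mice was compared with cultured wild-type mouse embryonic fibroblasts (MEF) that had received no drug. The members were chosen by their labels, with earlier results of these data known. They are the 2 libraries of vehicle lung and the 2 libraries of untreated wild-type MEF, 4 of the 10 RNA-seq libraries in the series. The lungs came from NIH Swiss mice of 7 weeks that were injected once into a vein with 5% dextrose, the solvent of CBL0137, 24 hr before collection. The MEF came from embryos of C57BL/6J mice, carried wild-type Trp53, were kept in DMEM with serum, and were left without solvent or drug. None of the 4 libraries had CBL0137. The series' description speaks of 2 mice in each lung group and of replicate MEF, without saying that a lung library is 1 mouse or that the MEF replicates came from separate embryos, so the p-values measure the spread between these libraries. Tissue, strain, age, culture and injection all differ between the groups and cannot be told apart, and 1 field of the labels gives the lung mice as female where another gives male. Genes of the X and Y chromosomes were therefore left out.

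Lung is a mixture. Its airways are lined by ciliated and club cells, its air sacs by flat type 1 cells, through which gas passes, and by cuboidal type 2 cells, which make surfactant, and between them lie capillaries, stroma and immune cells. MEF are a nearly uniform culture of dividing mesenchymal cells that secrete fibronectin, collagens and other matrix, and they keep genes of the embryo switched on, such as Hmga2, Igf2bp3 and the Hox genes. In bulk RNA of this kind, fewer cells of a type and less RNA per cell cannot be told apart.

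The values are whole numbers of reads on each Ensembl gene identifier, of which the files list 38293. Between 1458258 and 18165033 reads per library entered the tables, and only 0.803% to 1.14% of them were counted on identifiers, which left 137150 and 191972 counts in MEF 1 and MEF 2, 200754 in lung 1 and 16579 in lung 2. Lung 2 is thus 12.1 times shallower than lung 1. A single count equals 69.1 CPM (counts scaled to the library size, after TMM) in lung 2 and 6.79 CPM in MEF 2, so a 0 in lung 2 carries little information. Across the 1773 identifiers tested, log2 CPM correlated with Pearson's r = 0.951 between the MEF libraries, 0.777 between the lung libraries and 0.422 to 0.601 between a MEF and a lung library. These are descriptions across genes, which are not independent replicates.

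The counts lay mainly where genes overlap on opposite strands. Of the 33668 identifiers kept, 20.97% overlap an exon of an oppositely oriented gene in the GRCm38 annotation (GENCODE M21), and these held 70.4% to 79.3% of the counts of each library and made up 71.6% of the identifiers tested. The library kit keeps the strand of the RNA, and the counts appear to be of the strand opposite to each identifier. For this reason every identifier is named with the gene that lies opposite to it, as identifier/opposite gene. Read in this way, the tables show little of a gene that has no annotated partner.

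Lung and MEF differed at 646 of 1773 tested identifiers (36.4%, edgeR quasi-likelihood test, Benjamini-Hochberg adjusted p under 0.05). Of all those tested, 338 identifiers (19.1%) were higher in lung and 308 (17.4%) were higher in MEF, and the median log2 fold change (lung over MEF) of all was 0.03. DESeq2 called 157 and 136, and without lung 1 only 46 and 70 were called. The libraries of the groups did not overlap at 569 identifiers (32.1%) with higher values in lung and at 617 (34.8%) with higher values in MEF. With 2 libraries against 2, an exact permutation test of 1 identifier cannot go below p = 0.333, so the calls rest on the spread that the model shares across identifiers. Identifiers with an opposite exon were called at 37.2%, close to the 36.4% of all. The split between the directions depends on the scaling. With all reads of a file as library size, which moves the median log2 fold change of all identifiers to 0.42, 492 were higher in lung and 178 in MEF.

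**Figure D1:**
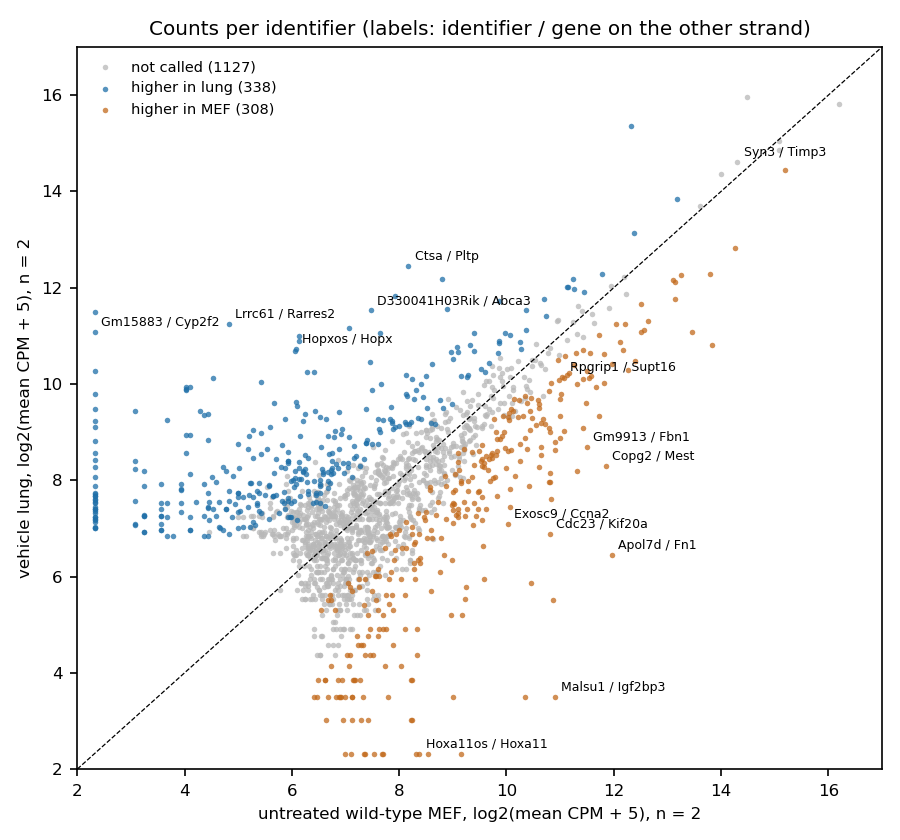
Each point is 1 of the 1773 tested identifiers, placed by log2(mean CPM + 5) in the 2 MEF libraries (x axis) and the 2 lung libraries (y axis). Blue points (338) were higher in lung, orange points (308) higher in MEF and grey points (1127) were not called. Labels give identifier / opposite gene, and identifiers with no count in MEF stand in a column at the left edge.

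Airway and alveolar epithelium could be read at a few identifiers. Of the listed epithelial genes, 6 were visible through an opposite identifier that passed the filter. For type 2 cells this was 1 of 11 listed genes, and for type 1 cells 2 of 10. For club cells it was 1 of 8, and for ciliated cells 2 of 13. All 6 identifiers were higher in lung, against 19.1% of all tested. The identifiers opposite Cyp2f2, Rtkn2, Hopx and Ccdc39 passed the filter through lung alone (MEF counts 0 and 0, 1 and 1, 8 and 8, and 1 and 8). They could not have been called toward MEF, so the comparison with 19.1% is not a test. Gm15883/Cyp2f2 lies opposite the cytochrome P450 of club cells at chr7:27124481-27130674 (minus strand). It had 0 counts in both MEF libraries, 344 in lung 1 and 31 in lung 2, that is 2173 and 2143 CPM, which were nearly equal in spite of the depth. It was at least 188-fold higher in lung, taking 3 counts over both MEF libraries as the floor (adjusted p = 1.92e-08).

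D330041H03Rik/Abca3 lies opposite the lipid pump that loads surfactant into the lamellar bodies of type 2 cells. It had 13 and 34 counts in MEF, and 454 and 44 in lung, so both lung libraries (2868 and 3042 CPM) stood above both MEF libraries (115 and 231 CPM). The log2 fold change was 4.02 ± 0.26 (SE, n = 2 per group, adjusted p = 6.41e-08). Type 1 cells were seen at Hopxos/Hopx, opposite a homeodomain-only protein that marks these cells, with 8, 8, 240 and 27 counts in MEF 1, MEF 2, lung 1 and lung 2 (log2 fold change 4.67 ± 0.30, adjusted p = 6.36e-08). Gm16212/Rtkn2, opposite another marker of type 1 cells, had 1, 1, 103 and 8 counts in the same order (6.16 ± 0.54, adjusted p = 1.21e-06). At all these identifiers the groups were far apart.

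Ciliated cells were read at 2 identifiers. Ttc14/Ccdc39, opposite a ruler protein of the ciliary axoneme, had 1 and 8 counts in MEF and 96 and 5 in lung (log2 fold change 3.97 ± 0.52, adjusted p = 5.13e-05). Tex9/Mns1, opposite another axonemal protein, had 24 and 15 counts in MEF and 54 and 5 in lung (1.16 ± 0.41, adjusted p = 0.0419), and the call was lost with DESeq2 (adjusted p = 0.41), without MEF 2 (0.446), without lung 1 (0.453) or without lung 2 (0.126). Both MEF libraries held counts at both identifiers. Under their own symbols the 2 tested ciliary genes were not called, Ccdc39/Ttc14 with a log2 fold change of 0.43 (adjusted p = 0.408) and Dnah11/Cdca7l with -0.08 (adjusted p = 0.928).

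The largest differences toward lung are given for 9 identifiers with an opposite named gene, 5 of which had no count in MEF. Gm15883/Cyp2f2 of the club cell list, described above, is 1 of these 5, and the others lie beyond the marker lists. Gm11651/Ace lies opposite angiotensin-converting enzyme, which the lung capillary bed carries at a high level. It had 127 and 9 counts in lung and none in MEF, at least 68.3-fold higher (adjusted p = 7.48e-07). Gm16048/Npr1, opposite the receptor of atrial natriuretic peptide, had 87 and 5 counts in lung and none in MEF, at least 46.2-fold higher (adjusted p = 4.02e-06). Both of these genes with vascular roles were thus seen in lung alone at this depth, although no listed endothelial marker could be read through an opposite identifier.

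Gm15609/Shank3, opposite a scaffold protein, had 91 and 9 counts in lung and none in MEF (at least 50.2-fold higher). Gm26752/Ppp1r14c, opposite an inhibitor of protein phosphatase 1, had 64 and 10 (at least 37.2-fold). Both lung libraries held counts at both identifiers, and both MEF libraries were at 0.

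Lrrc61/Rarres2 lies opposite chemerin, a secreted attractant of immune cells. Its counts were 3 and 3 in MEF and 398 and 34 in lung, and the 2 lung libraries were close in CPM (2514 and 2351), with a log2 fold change of 6.67 ± 0.32 (adjusted p = 1.53e-08). Zfp652/Abi3, opposite an adaptor protein of the Abl-interactor family and also opposite the antisense gene Zfp652os, had 1, 2, 191 and 10 counts (6.44 ± 0.46). Gm4673/Lsr, opposite a receptor of epithelial tricellular junctions, had 1, 2, 165 and 12 counts (6.30 ± 0.44). Gm7097/Slc16a9, opposite a transporter of the monocarboxylate family, had 0, 1, 72 and 3 counts (6.36 ± 0.72). The rule that chose these 9 asked for a named opposite gene and for lung libraries that all lie above the MEF libraries, so their lack of overlap is no finding. Without lung 1, 6 of these 9 (Gm11651, Gm15609, Gm16048, Gm26752, Zfp652 and Gm7097) failed the count filter and were not tested, since lung 2 alone is too shallow.

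**Figure D2:**
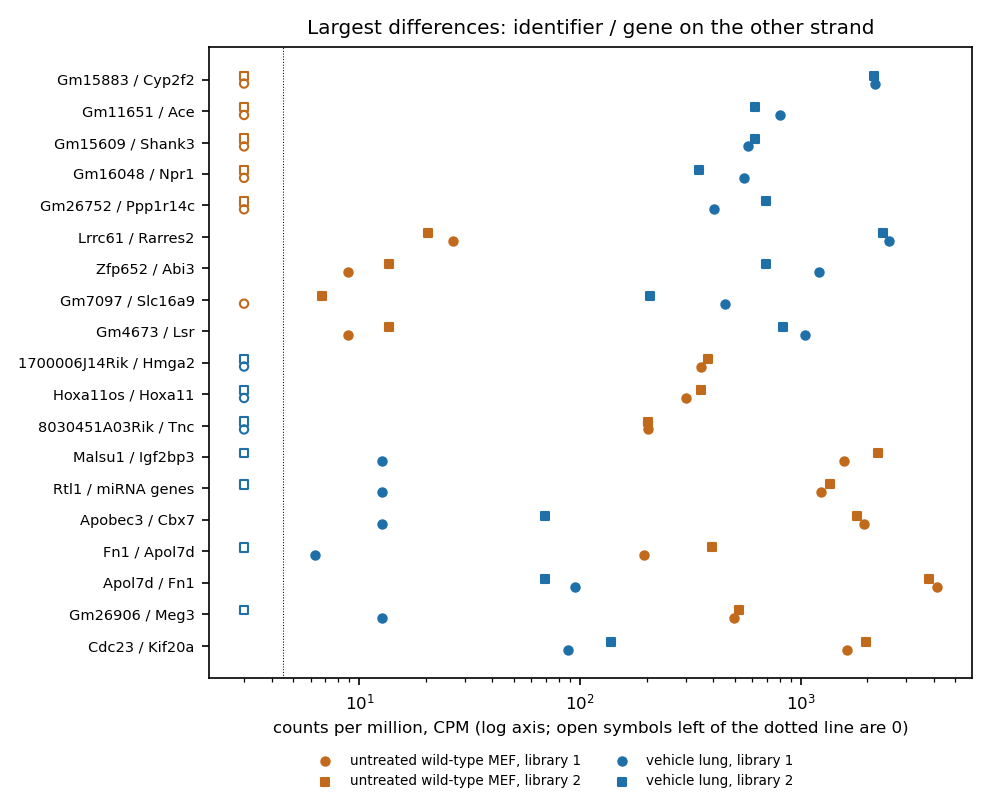
CPM (log axis) of 9 identifiers with the largest differences toward lung (upper lines) and 10 toward MEF (lower lines), 1 symbol per library: orange for untreated wild-type MEF, blue for vehicle lung, circles for library 1 and squares for library 2, open symbols left of the dotted line for 0 counts. The rule that chose them required groups that do not overlap. The lung values of Gm15883/Cyp2f2 (2173 and 2143 CPM) and of Lrrc61/Rarres2 (2514 and 2351 CPM) are the highest of the upper 9 lines.

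Among the most abundant identifiers higher in lung, Gm26809/Gm20186 stood out with 678 and 632 counts in MEF and 6097 and 654 in lung (38512 and 45219 CPM, log2 fold change 3.02 ± 0.23, adjusted p = 2.32e-07). It is a predicted gene opposite another predicted gene on chr6:18844220-18847360, and its function is not known here. Gm17131, Gm26905 and Gm21897 have no opposite exon. On the other strand, Gm17131 overlaps the span of Tmem132d and Gm26905 that of Galntl6, without shared exon sequence. The 3 identifiers differed by a log2 fold change of 0.54 to 0.74. These 3 small differences lost their call in several alternatives: Gm17131 without MEF 1 (adjusted p = 0.129) or MEF 2 (0.108), Gm26905 without MEF 2 (0.203), lung 1 (0.0909) or lung 2 (0.0818), and Gm21897 without MEF 1 (0.359), MEF 2 (0.249) or lung 1 (0.275).

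The other cell types of lung were mostly out of reach. Of the lists for endothelium (20 genes), macrophages and other myeloid cells (16), lymphocytes (16), erythrocytes (9), smooth and cardiac muscle (10) and adult lung stroma (14), no gene had an opposite identifier that passed the filter. Under their own symbols, a few lung genes without an opposite exon did carry counts and are given here after their values were seen. Sftpc, the surfactant protein of type 2 cells, had 0 and 0 counts in MEF and 30 and 7 in lung (adjusted p = 0.00018), Scgb1a1, the secretoglobin of club cells, had 0, 0, 19 and 4 (adjusted p = 0.00106), and Calcrl, an endothelial receptor of adrenomedullin, had 0, 1, 20 and 2 (adjusted p = 0.00165). Emp2 (3, 3, 14 and 2 counts, adjusted p = 0.0497) and Akap5 (0, 5, 22 and 2, adjusted p = 0.0121) of type 1 cells were also higher in lung. Sftpc, Scgb1a1, Calcrl, Emp2 and Akap5 all passed the filter through lung alone and could not have been called toward MEF. Vwf, an endothelial clotting factor, had 7, 7, 19 and 6 counts and was not called (adjusted p = 0.0644). Other markers did not rise in lung. Acta2, the only tested gene of the muscle list, was higher in MEF (log2 fold change -2.98). Its lung counts (3 and 0) lay under the filter, so it could not have been called toward lung. Csf1r/Hmgxb3, the only tested myeloid gene, has an opposite exon and was not called, with 33, 74, 41 and 1 counts (-0.78 ± 0.39, adjusted p = 0.136). Whether these few counts are antisense transcripts or reads assigned against their strand was not tested.

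Identifiers opposite fibroblast matrix genes were higher in MEF. Of 24 listed genes of embryonic and cultured fibroblasts, 4 could be read through an opposite identifier. All 4 identifiers were higher in MEF (17.4% of all tested). Their median log2 fold change was -4.48 (-3.55 with Tnc at its bound) against 0.03 for all identifiers. Those opposite Tnc (lung counts 0 and 0) and Col5a1 (2 and 0) passed the filter through MEF alone and could not have been called toward lung. Apol7d/Fn1 lies opposite fibronectin at chr1:71652837-71662843, sharing 292 bases of exon. It had 469 and 560 counts in MEF and 15 and 1 in lung, that is 4147 and 3802 against 94.7 and 69.1 CPM, with a log2 fold change of -5.41 ± 0.28 (adjusted p = 1.53e-08). The identifier of fibronectin itself, Fn1/Apol7d, was also higher in MEF with 22, 58, 1 and 0 counts (-5.44 ± 0.83, adjusted p = 0.00018).

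Gm9913/Fbn1, opposite the fibrillin of elastic microfibrils, had 352 and 390 counts in MEF and 31 and 9 in lung (log2 fold change -3.56 ± 0.31, adjusted p = 1.18e-06). 8030451A03Rik/Tnc, opposite tenascin C, a matrix protein of embryonic and healing tissue, had 23 and 30 counts in MEF and none in lung, at least 11.7-fold higher in MEF (adjusted p = 0.000223). Gm13372/Col5a1, opposite a chain of type V collagen, had 18, 16, 2 and 0 counts (-3.39 ± 0.79, adjusted p = 0.00409). Of these, 8030451A03Rik, Gm13372 and Fn1 lost their call without lung 1 (adjusted p = 0.129, 0.25 and 0.197), while Gm9913 and Apol7d kept it in all leave-one-out fits. Under their own symbols, 9 of 9 tested identifiers of fibroblast genes were higher in MEF. Their lung counts lay under the filter, so they passed it through MEF alone and could not have been called toward lung. Whether these counts are antisense transcripts or reads assigned against their strand was not tested. Examples picked after their values were seen are Col1a1 (19 and 43 counts in MEF, 0 and 1 in lung), Col3a1 (14, 36, 2 and 1) and the intermediate filament gene Vim (14, 25, 7 and 1).

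Of the contractile and matrix remodelling genes, Gm15270/Ccn2 was higher in MEF, with 357 and 526 counts against 125 and 7 (-2.18 ± 0.21, adjusted p = 2.98e-06). Ccn2 encodes connective tissue growth factor, which serum and stretch induce. Syn3/Timp3, opposite the matrix-bound inhibitor of metalloproteinases, was one of the most abundant identifiers of both groups and was not called, with 19727 and 20762 CPM in MEF and 25961 and 24062 in lung (log2 fold change 0.31 ± 0.19, adjusted p = 0.226). Its call is borderline, since it passed without lung 2 and with upper quartile normalization. The smooth muscle actin gene Acta2, under its own symbol, had 11 and 27 counts in MEF and 3 and 0 in lung (adjusted p = 0.00665).

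1700006J14Rik/Hmga2, opposite an architectural chromatin protein of embryonic and transformed cells, had 40 and 56 counts in MEF and none in lung, at least 21.2-fold higher in MEF (adjusted p = 2.76e-05). Malsu1/Igf2bp3, opposite an RNA-binding protein of fetal tissue, had 178, 330, 2 and 0 counts (-7.24 ± 0.49, adjusted p = 1.02e-07). Hoxa11os/Hoxa11, opposite a homeobox gene of limb and kidney, had 34, 52, 0 and 0 counts, at least 19.02-fold higher in MEF (adjusted p = 3.95e-05). Apobec3/Cbx7, opposite a Polycomb subunit that represses the Ink4a/Arf locus, had 218, 263, 2 and 1 counts (-6.64 ± 0.42, adjusted p = 6.36e-08).

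At each of these 4 identifiers no lung library had more than 2 counts. Without lung 1 the calls for 1700006J14Rik (log2 fold change -8.08) and Hoxa11os (-7.92) were lost, and the cause was not tested.

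The Dlk1-Meg3 imprinted region of chromosome 12 was seen at a pair of neighbouring identifiers. There the copy inherited from the mother produces Meg3 and a transcript antisense to Rtl1 that carries microRNAs, and the copy inherited from the father produces Rtl1, a gene derived from a retrotransposon. Rtl1, at chr12:109589193-109600330 on the minus strand, had 139 and 199 counts in MEF and 2 and 0 in lung (log2 fold change -6.67 ± 0.45, adjusted p = 1.03e-07). Gm26906/Meg3, at chr12:109568628-109571723, had 56, 77, 2 and 0 counts (-5.33 ± 0.57, adjusted p = 7.88e-06). Both were nearly confined to the MEF libraries of this comparison.

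Opposite Rtl1 lie 6 microRNA genes, all of which matched RefSeq (GRCm38.p6). Their 11 mature sequences are shown because they are the annotated genes that name what lies on the other strand of the Rtl1 identifier. They are printed 5′ to 3′ with the seed (bases 2 to 8) in capitals, and the 11 seeds are all different. The reads do not measure the mature microRNAs, since the kit makes libraries of long RNA.
mmu-miR-431-5p: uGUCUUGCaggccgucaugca
mmu-miR-431-3p: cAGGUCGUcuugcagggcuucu
mmu-miR-433-5p: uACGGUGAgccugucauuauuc
mmu-miR-433-3p: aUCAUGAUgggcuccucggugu
mmu-miR-127-5p: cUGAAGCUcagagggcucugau
mmu-miR-127-3p: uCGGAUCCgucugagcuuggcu
mmu-miR-434-5p: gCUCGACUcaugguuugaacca
mmu-miR-434-3p: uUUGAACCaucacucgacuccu
mmu-miR-432: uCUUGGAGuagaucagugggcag
mmu-miR-136-5p: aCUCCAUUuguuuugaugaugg
mmu-miR-136-3p: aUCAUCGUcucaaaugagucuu

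Of 6 identifiers opposite a gene of the list of imprinted loci, 4 were higher in MEF (17.4% of all tested) and 2 were not called. Gm26906/Meg3 was among the 4, and the median log2 fold change of the 6 was -1.16. Gm26906 (lung counts 2 and 0) and Gnas (10 and 1) passed the filter through MEF alone and could not have been called toward lung. The comparison with 17.4% is therefore not a test. Copg2 and Mest overlap each other at 1 locus, as do Gm20721 and Gnas, so the 6 are not separate loci. Copg2/Mest, opposite a gene expressed from the father's copy in embryonic mesoderm, had 408 and 562 counts in MEF and 43 and 5 in lung (-3.72 ± 0.23, adjusted p = 6.36e-08). Gm20721/Gnas, opposite the stimulatory G protein subunit, was the most abundant identifier that was higher in MEF, with 4150, 5654, 3630 and 312 counts, and it differed by only -0.75 ± 0.19 (adjusted p = 0.0066). That small difference was lost when all reads served as library size (-0.44, adjusted p = 0.448). Gnas/Nespas had 20, 30, 10 and 1 counts (-1.57 ± 0.50, adjusted p = 0.0247), a call that was lost without MEF 2 (adjusted p = 0.126) or without lung 1 (0.437).

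Of the 5 identifiers opposite genes of cell division that could be tested (5 of 48 listed genes), 4 were higher in MEF (17.4% of all tested), with a median log2 fold change of -3.30. Under their own symbols 7 identifiers of the list were tested, and 2 were higher in lung (Ccnd1/LTO1 and Gins2/Gse1), 2 were higher in MEF (Ccna2/Exosc9 and Kif20a/Cdc23) and 3 were not called, with a median of -0.01. Cdc23/Kif20a, opposite a kinesin of the late mitotic spindle, had 182 and 289 counts in MEF and 14 and 2 in lung (-4.25 ± 0.31, adjusted p = 1.67e-07). Exosc9/Ccna2, opposite cyclin A2, which drives S phase and entry into mitosis, had 114, 158, 9 and 3 counts (-3.86 ± 0.37, adjusted p = 2.77e-06). Lcorl/Ncapg, opposite a subunit of condensin, had 58, 92, 10 and 0 counts (-3.30 ± 0.43, adjusted p = 4.98e-05). At all 3 identifiers both lung libraries lay well under both MEF libraries. The lung counts of Lcorl/Ncapg, whose value is the median of the list, lay under the filter. It passed through MEF alone and could not have been called toward lung, so the comparison with 17.4% is not a test.

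LTO1/Ccnd1, opposite cyclin D1, the cyclin of G1 that mitogens induce, had 674, 914, 416 and 26 counts and differed less (-1.34 ± 0.19, adjusted p = 9.25e-05). Gse1/Gins2, opposite a subunit of the replicative helicase, was not called, with 12, 19, 19 and 0 counts (-0.17 ± 0.55, adjusted p = 0.839). All 4 calls held when any 1 library was left out.

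Only Ncapg of these 5 opposite genes matched the promoter table (RefSeq, GRCm38.p6), and its promoter is shown as an example of the elements known from cell cycle genes. The 300 bases at chr5:45669675-45669974, plus strand, hold 1 TTTGAA (the cell cycle homology region element) and 1 CCAAT box, read here on the other strand, both in capitals. Searching both strands of 32851 promoters of this length, TTTGAA occurred in 17.9%, CCAAT in 37.4% and both in 6.95%, so their presence in 1 promoter is a description only.
Ncapg promoter: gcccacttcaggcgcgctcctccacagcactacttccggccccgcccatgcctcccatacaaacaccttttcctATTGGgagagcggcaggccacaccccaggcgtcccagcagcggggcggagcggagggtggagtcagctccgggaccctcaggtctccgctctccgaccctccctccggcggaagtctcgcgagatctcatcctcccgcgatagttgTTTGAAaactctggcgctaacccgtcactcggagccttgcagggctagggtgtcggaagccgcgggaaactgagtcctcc

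The core histones of this list are made mainly during DNA replication. All 4 identifiers opposite a gene of the list were higher in MEF (17.4% of all tested), with a median log2 fold change of -1.94, and 2 of the 4 kept their call with DESeq2. Under their own symbols, 2 of 4 identifiers were higher in MEF and 2 were not called. The 2 called, Hist1h2bl (lung counts 8 and 0) and Hist2h3c2 (5 and 0), passed the filter through MEF alone and could not have been called toward lung. Gm20628, opposite Hist2h3b and Hist2h2bb, had 1213 and 1723 counts in MEF and 414 and 25 in lung (-2.26 ± 0.21, adjusted p = 2.42e-06). 4930558J22Rik/Hist1h4b had 75, 120, 22 and 2 counts (-2.41 ± 0.31, adjusted p = 4.62e-05). Gm20633/Hist2h2aa1 (51, 66, 26 and 0 counts, -1.62 ± 0.41) and Gm20632/Hist2h2aa2 (255, 390, 285 and 13 counts, -0.62 ± 0.22) lie opposite near-identical copies, and how reads were split between them is uncertain. Without lung 1 the calls for 4930558J22Rik (adjusted p = 0.0884) and Gm20633 (0.052) were lost, and without MEF 2 that for Gm20632 (0.0943).

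Of the 5 most abundant identifiers that were higher in MEF, 2 are Gm20721/Gnas (above) and mt-Nd5 (below). Ap3m1/Vcl, opposite vinculin, which ties actin to focal adhesions, had 2125 and 2973 counts in MEF and 1218 and 97 in lung (-1.42 ± 0.20, adjusted p = 7.65e-05). Prss23os/Prss23, opposite a secreted serine protease, had 1574, 2256, 362 and 19 (-2.87 ± 0.24, adjusted p = 6.59e-07). Snx22/Ppib, opposite cyclophilin B, a folding enzyme of the endoplasmic reticulum needed for collagen, had 1023, 1553, 771 and 72 (-0.996 ± 0.189, adjusted p = 0.000947), and with all reads as library size its call was lost (adjusted p = 0.136).

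Identifiers of the mitochondrial genome were lower in lung or not called. The counts appear to be of the strand opposite to each identifier. Whether they are of these genes' own transcripts was not tested. mt-Nd5 and mt-Nd6 code for subunits of respiratory complex I on opposite strands and share 14 bases. mt-Nd5 had 1771, 1889, 852 and 66 counts (-1.49 ± 0.20, adjusted p = 7.07e-05). mt-Nd6 had 420, 450, 254 and 37 (-0.88 ± 0.22, adjusted p = 0.00594), a call that was lost without lung 1 (adjusted p = 0.347). Of the 14 mitochondrial identifiers tested under their own symbols, 8 were higher in MEF (17.4% of all tested) and 6 were not called. Of the 8, mt-Atp8 (lung counts 8 and 0) passed the filter through MEF alone and could not have been called toward lung. Counts on mitochondrial identifiers, with the same limit of strand, made up 2.53% to 3.09% of the counts in MEF and 1.28% to 1.45% in lung.

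Of 3 identifiers opposite circadian genes, 2 were higher in lung (19.1% of all tested) and 1 was not called, while DESeq2 called 1 and the fit without lung 1 called 0 of the 2 that it could test. Of the 2 called, D930015M05Rik/Cry2 passed the filter through lung alone and could not have been called toward MEF, so the comparison with 19.1% is not a test. The time of day of collection is not given in the sources used here. Lung follows the rhythm of the animal, and cultured fibroblasts drift out of phase with each other. Sphk2/Dbp, opposite a clock-controlled transcription factor and also opposite the ribosomal protein gene Rpl18, had 31 and 42 counts in MEF and 205 and 6 in lung (1.998 ± 0.308, adjusted p = 0.000188). The lung libraries differed from each other (1295 and 415 CPM), and without lung 1 the log2 fold change was 0.54 (adjusted p = 0.619). D930015M05Rik/Cry2, opposite a repressor of the clock, had 4, 3, 18 and 3 counts (2.17 ± 0.66, adjusted p = 0.0203), and lost its call without MEF 1 (adjusted p = 0.0509), without MEF 2 (0.309) or without lung 2 (0.105). Nr1d1/Thra, the identifier of the clock repressor Rev-erb alpha opposite the thyroid hormone receptor, was not called with 10, 11, 25 and 2 counts (0.93 ± 0.48, adjusted p = 0.151), and Thra/Nr1d1, with 5, 6, 50 and 1 counts, did not pass the filter.

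FACT, the histone chaperone made of Supt16 and Ssrp1, is trapped in chromatin when CBL0137 binds DNA, and the study examined tissues by their FACT content. Rpgrip1/Supt16 had 228 and 333 counts in untreated MEF and 178 and 16 in vehicle lung, or 2016 and 2261 against 1124 and 1106 CPM. It was higher in MEF with a log2 fold change of -0.93 ± 0.19 (adjusted p = 0.00156). The call was lost without lung 1 (-0.98, adjusted p = 0.0765) and with all reads as library size (-0.66, adjusted p = 0.159). P2rx3/Ssrp1, which shares only 51 bases with Ssrp1, had 0 counts in all 4 libraries, so Ssrp1 could not be read.

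Few genes of the p53 and interferon pathways could be read in these untreated samples. E230016M11Rik/Gadd45a, opposite a stress-induced target of p53, had 20, 21, 7 and 1 counts (-1.74 ± 0.56, adjusted p = 0.0268). Its lung counts lay under the filter, so it could not have been called toward lung. Its call was lost without MEF 1 (adjusted p = 0.109), MEF 2 (0.0862) or lung 1 (0.563). Gm11626/Ifi35, the single identifier opposite an interferon-response gene that passed the filter (of 43 genes), was not called with 6, 13, 23 and 2 counts (adjusted p = 0.15). Irf1/Gm17334, the identifier of an interferon regulatory factor, had 0, 0, 23 and 2 counts under its own symbol and was higher in lung (adjusted p = 0.000567). It passed the filter through lung alone and could not have been called toward MEF. In the Hox clusters, 2 of 5 identifiers were higher in MEF (17.4% of all tested) and 3 were not called. The 2 called, Hoxa11os and Hoxa11 (the latter with 9, 16, 1 and 0 counts), overlap each other by 800 bases at 1 locus. Both passed the filter through MEF alone and could not have been called toward lung, so the comparison with 17.4% is not a test. Among those not called was Hoxb3os with 44, 79, 84 and 12 counts (log2 fold change 0.30 ± 0.28, adjusted p = 0.432). The call for Hoxa11 was lost without lung 1 (adjusted p = 0.319).

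**Figure D3:**
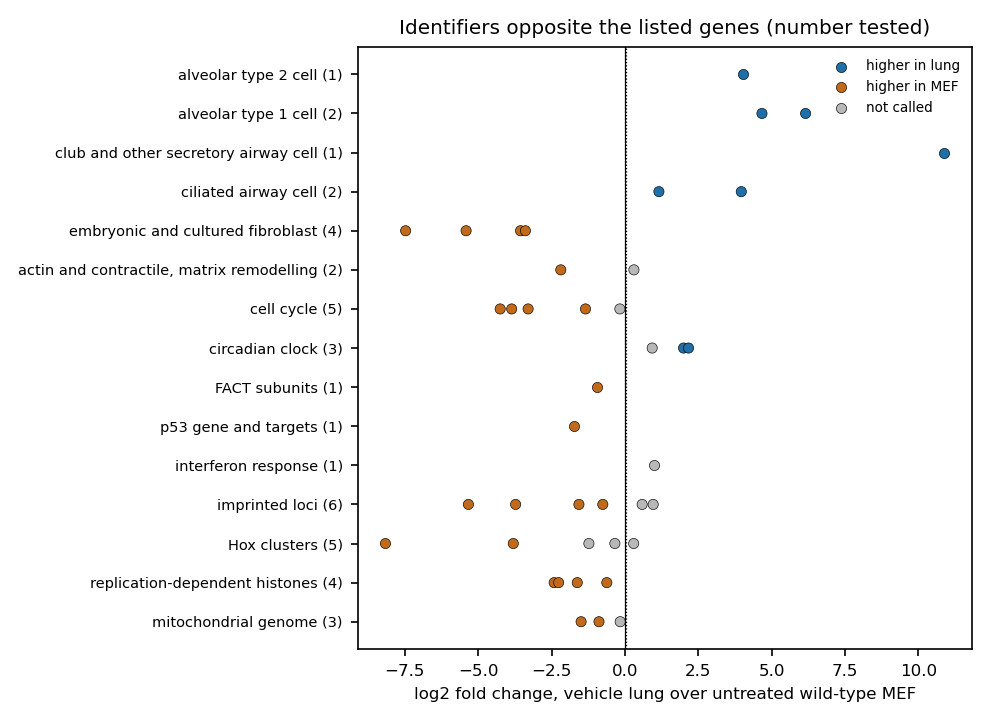
Log2 fold changes (lung over MEF, x axis) of identifiers that lie opposite genes of 15 lists, 1 point per identifier, with the number tested in brackets. Blue points were higher in lung, orange points higher in MEF, grey points were not called, and the dotted line is the median of all tested identifiers (0.03). The epithelial lists lie to the right of 0, and the fibroblast and histone lists to the left.

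Pairs of overlapping genes gave 2 readings of 1 locus. In 114 pairs both identifiers could be tested. In 10 pairs they were called in opposite directions, in 12 in the same direction, in 44 only 1 was called and in 48 neither. Of all tested identifiers, 19.1% were higher in lung and 17.4% in MEF. Whether 10 and 12 pairs are more than unrelated identifiers would give was not tested. The clearest was St3gal6 and Dcbld2 on chromosome 16, a sialyltransferase and a membrane protein whose 3′ ends overlap by 1603 bases (chr16:58468125-58469727). St3gal6/Dcbld2 had 176 and 242 counts in MEF and 60 and 5 in lung (-2.09 ± 0.23, adjusted p = 9.4e-06), whereas Dcbld2/St3gal6 had 3, 1, 78 and 6 counts (4.85 ± 0.54, adjusted p = 1.07e-05). Read from the other strand, the counts opposite Dcbld2 were higher in MEF and those opposite St3gal6 were higher in lung.

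Slc15a3/Tmem132a, opposite a membrane protein, had 186, 289, 55 and 3 counts (-2.45 ± 0.25), and Tmem132a/Slc15a3, opposite a lysosomal peptide transporter, had 6, 14, 55 and 5 (2.17 ± 0.42). Fam69a/Rpl5, opposite a ribosomal protein, had 126, 196, 81 and 5 counts (-1.33 ± 0.24), and Rpl5/Fam69a had 2, 6, 29 and 3 (2.57 ± 0.57). D230025D16Rik/B3gnt9 (51, 82, 13 and 1 counts, -2.63 ± 0.39) and B3gnt9/D230025D16Rik (25, 19, 59 and 7 counts, 1.19 ± 0.38) also parted, as did C77080 (-1.91 ± 0.62) and Yars (1.88 ± 0.65), which share 30 bases. Ccnd1/LTO1 was higher in lung with 8, 9, 30 and 3 counts (1.54 ± 0.48, adjusted p = 0.0225), the opposite of LTO1/Ccnd1.

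These reverse readings are thin, and some lost their call when 1 library was left out. This held for B3gnt9 (adjusted p = 0.291 without MEF 2, 0.258 without lung 1 and 0.0966 without lung 2), Yars (0.0634 without MEF 1, 0.461 without MEF 2 and 0.126 without lung 2), C77080 (0.0729 without MEF 1, 0.0822 without MEF 2 and 0.885 without lung 1), and, without lung 1, for Tmem132a (0.192), Fam69a (0.0622) and D230025D16Rik (0.107). The number of such pairs was 5 without MEF 2, 0 without lung 1 and 5 without lung 2.

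**Figure D4:**
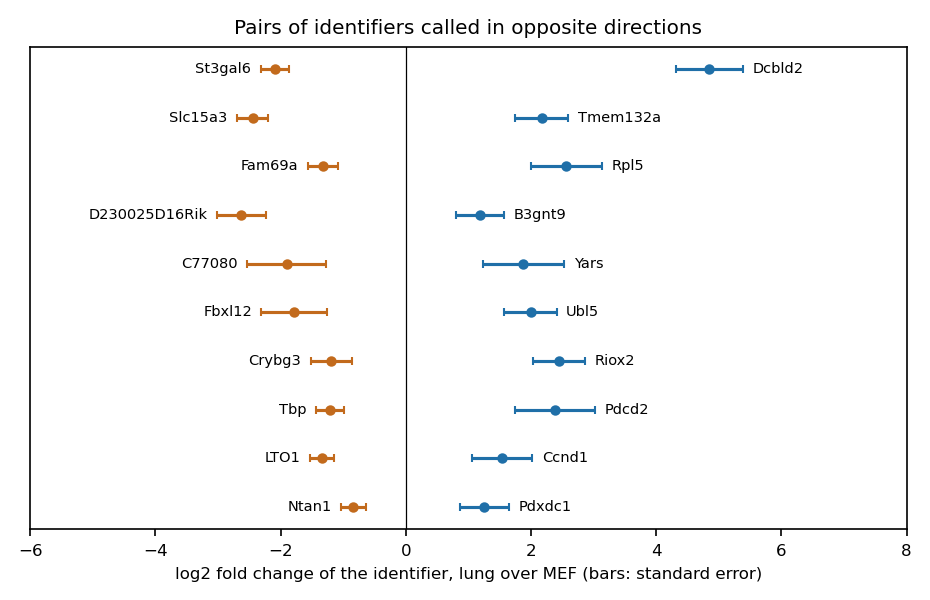
Log2 fold changes (lung over MEF) with standard errors of the 10 pairs of overlapping identifiers called in opposite directions, 1 pair per line. Orange marks the identifier higher in MEF and blue the identifier higher in lung. The distance is largest for St3gal6 (-2.09) and Dcbld2 (4.85).

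Not every difference had an annotated partner. Of the 344 tested identifiers with no gene on the other strand, 67 were higher in lung and 57 in MEF (36.0%). For 35 of those 67 (52.2%), 20 of those 57 (35.1%) and 98 of the 220 that were not called (44.5%), the nearest gene on the other strand lay within 10 kb with its 3′ end toward the identifier. The most extreme, named after its values were seen, was Clec9a, a lectin of cross-presenting dendritic cells, with 0 counts in both MEF libraries and 564 and 32 in lung, at least 299-fold higher (adjusted p = 1.92e-08). The end of Clec1a, a lectin of endothelium and myeloid cells, lies 9 bases away on the other strand. Whether these reads are of Clec9a or run on from Clec1a was not tested. Lars2, also named after its values were seen, held 608 and 5912 counts in MEF and 11881 and 748 in lung, so the MEF libraries differed from each other by more than many groups did, and it was not called (log2 fold change 1.48 ± 0.57, adjusted p = 0.0564).

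The same contrast was read in libraries that share none with it, the 2 lungs and 2 wild-type MEF cultures that received CBL0137 (60 mg/kg in the mouse, 1 µM in culture, 24 hr). This was an alternative chosen after seeing the data, in a fit of 8 libraries. Of 2751 identifiers tested there, 317 (11.5%) were higher in treated lung and 365 (13.3%) in treated MEF. Of the 338 identifiers higher in vehicle lung, 309 (91.4%) had the same sign after treatment, 167 were called in the same direction and 1 in the other. Of the 308 higher in untreated MEF, 288 (93.5%) had the same sign, 172 were called in the same direction and 3 in the other. Gm15883/Cyp2f2 had 0 and 0 counts in treated MEF and 195 and 411 in treated lung, and Hoxa11os/Hoxa11 had 19 and 53 in treated MEF and 0 and 0 in treated lung.

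The mitotic readings were small in both treated groups. In treated MEF Cdc23/Kif20a had 2 and 30 counts, Exosc9/Ccna2 had 1 and 9, and Lcorl/Ncapg had 2 and 10, near the treated lungs (18 and 15, 12 and 6, 10 and 4). Their log2 fold changes between treated lung and treated MEF were -0.27, 0.43 and -0.21, none of them called. The change of the difference itself (interaction of tissue and drug) passed for Cdc23 (4.25, adjusted p = 0.0404) and did not for Exosc9 (4.46, adjusted p = 0.0815) or Lcorl (3.46, adjusted p = 0.267). LTO1/Ccnd1 kept its direction (-2.17, adjusted p = 0.000312). Of the 63 named identifiers that were called without drug, 58 had the same sign with it and 43 were called again.

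**Figure D5:**
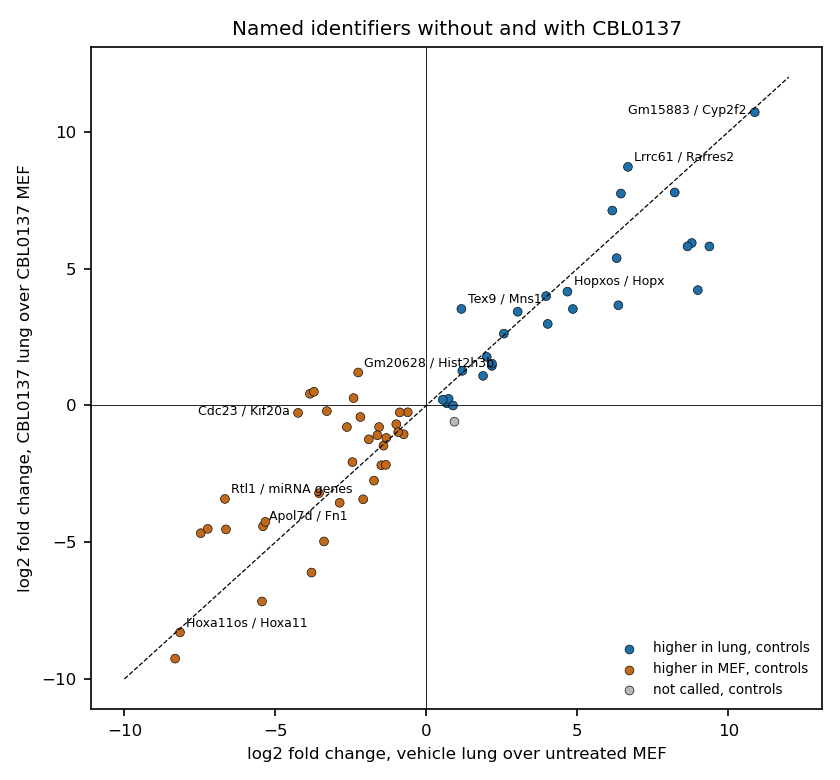
Log2 fold changes of the named identifiers between lung and MEF without CBL0137 (x axis) and with it (y axis, from other libraries), coloured by their call without drug. The dashed line marks equal values. Of 64 points, 35 lie within 1 log2 unit of it, 29 differ by more and 18 by over 2. Among the 18 are Cdc23/Kif20a (-4.25 and -0.27), Gm11651/Ace (9.37 and 5.81) and Rtl1 (-6.67 and -3.42). Where a group had no count, as untreated MEF at Gm11651, the plotted value has no upper bound. The interaction of tissue and drug passed for Cdc23 (adjusted p = 0.0404) and not for Gm11651 (0.589) or Rtl1 (0.327).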

How the data were processed

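Total RNA was isolated with TRIzol, depleted of ribosomal RNA, made into stranded libraries (TruSeq Stranded Total RNA with Ribo-Zero) and sequenced on an Illumina HiSeq. The authors deposited raw counts of reads per Ensembl gene, 1 table per library, without normalization. The submitters' processing notes name TopHat2 2.0.9, HTSeq and the GRCm38 (mm10) build; the strand setting and annotation release are not given in the sources used here. Each table closes with 5 summary lines, mostly reads on no gene, which stayed out of all fits.

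Libraries were grouped by GEO's labels. Identifiers were matched to GENCODE M21 (36345 of 38293, 94.9%). The 1948 unmatched (4.28% to 7.58% of counts) and 2677 of X and Y (0.971% to 1.35%) were left out. Counts of the 4 libraries were filtered (filterByExpr, at least 10 counts and 15 in total), scaled by TMM and fitted with the quasi-likelihood method of edgeR 4.0.16 (R 4.3.3). P-values were adjusted over 1773 identifiers by Benjamini and Hochberg and called under 0.05. The tests were checked on simulated counts. Folds against a group at 0 use a floor of 3 counts over that group, which covers counting error only. Shares of exon overlap count 1 shared base or more. Alternatives were DESeq2 1.42.0, other scalings and filters, all 10 libraries in 1 fit, a fold test at 1.5, each library left out and, chosen after seeing the data, the unmatched identifiers kept. Tables used Python 3.11.15 and pandas 2.3.3.

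Named were the 10 called identifiers per direction with the largest change, an opposite named gene, no overlap between groups and at least 50 counts; the 5 most abundant called per direction; up to 6 called per gene list; the identifiers opposite Supt16, Ssrp1, Thra and Nr1d1; and the 5 reciprocal pairs that parted most. The rule also covered Trp53 and Wrap53, which share no exon sequence in this annotation. Of the named identifiers, 2 are not reported here. The 21 gene lists came from general knowledge. The comparison, its members and the lists were chosen with earlier results of these data known.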

Additional observations from a re-analysis of the deposited data

Results flagged for a closer look

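The difference between lung and MEF changed with CBL0137 at 6 of 2751 identifiers (0.218%), tested as the interaction of tissue and drug in a fit of 8 libraries chosen after seeing the data. The interaction (log2 fold change of treated lung over treated MEF minus that of the controls) was 4.51 for Copg2/Mest, 3.88 for Gm20628 (opposite Hist2h3b and Hist2h2bb), 4.52 for Kctd18/Sgo2a, 4.25 for Cdc23/Kif20a, 2.26 for Ppm1e and -2.59 for Ctsa/Pltp (adjusted p = 0.000938 to 0.0409). Copg2/Mest had 408 and 562 counts in untreated MEF and 17 and 43 in treated MEF, against 43 and 5 in vehicle lung and 67 and 58 in treated lung. Kctd18, opposite a protector of centromeric cohesion, had 186 and 292 counts in untreated and 3 and 20 in treated MEF, against 38 and 2 and 43 and 22 in lung. Ctsa, opposite the phospholipid transfer protein Pltp, went the other way, with 35 and 38 counts in untreated MEF, 104 and 445 in treated MEF, 1010 and 70 in vehicle lung and 586 and 1486 in treated lung. Ppm1e had 243 and 303 counts in untreated and 34 and 96 in treated MEF, against 183 and 16 and 160 and 243 in lung. It has no opposite exon but overlaps the span of Gm11490 on the other strand.

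Among the identifiers left out because they are not in the annotation, 3 stood out by their counts. ENSMUSG00000045999 held 14086 counts over the 4 libraries (6870 and 6278 in MEF, 872 and 66 in lung), ENSMUSG00000092267 held 5092 (987, 1515, 2433 and 157) and ENSMUSG00000092665 held 2782 (478, 1170, 1022 and 112). Their genes, chromosomes and opposite strands are not known here, and no cause was tested.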

How the results depend on the processing

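No paired analysis was possible because the columns carry no replicate number that links a lung to a culture. With DESeq2 157 identifiers were higher in lung and 136 in MEF, with 1 pair called in opposite directions. With all reads as library size 178 were higher in MEF and 6 pairs parted (492 higher in lung). Without a filter on low counts 182 were higher in MEF and 3 pairs parted, and 5 pairs parted in the fold test at 1.5. Leaving out 1 library in turn gave 46 to 331 higher in lung, 70 to 309 higher in MEF and 0 to 9 pairs. The lowest values, 46, 70 and 0, came without lung 1, which leaves the shallow lung 2 alone and assumes that it varies like the MEF libraries.

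None of the 64 named identifiers that were tested changed sign in any of the settings in which they could be fitted. Their calls were lost for 14 with DESeq2, 16 without a filter, 11 with all 10 libraries in 1 fit, 9 with all reads as library size, 21 without lung 1 (another 13 were not tested), 5 without lung 2, 7 without MEF 1 and 11 without MEF 2, and the causes were not tested. Depth is also a limit: at 69.1 CPM per count in lung 2, a low level cannot be told from none.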
